A study of Mus musculus with 12 samples.

Results

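Punches of the basolateral amygdala (BLA) from male C57BL/6 mice made up 6 of the 12 RNA-sequencing libraries of the series, and they are the subject here. The rule took the 3 BLA libraries labelled early social isolated and the 3 labelled group housed. Both groups shared strain, sex and the tissue label of cerebrum, and the treatment label was the difference between them. The other 6 libraries came from the ventral tegmental area (VTA) of female mice, again with 3 libraries per housing. The study's design names the isolated animals stressed and the group-housed animals control, so the comparison asks what isolation early in life left in the RNA of the male BLA. The age of the mice, the length of isolation, the substrain, the number of animals behind a library and whether libraries came from separate animals are unstated in the labels used here. The p-values therefore reflect only how far these libraries spread, and that spread may be technical.

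The BLA receives sensory input from cortex and thalamus and sends it on to the central amygdala, striatum and prefrontal cortex. Its principal cells are glutamatergic projection neurons of cortical type, kept in check by local GABAergic interneurons and by the intercalated cell masses along its borders. The region is known for fear learning, for assigning value to social and other cues and for its sensitivity to stress hormones, whose receptors its neurons carry. Synaptic activity in these neurons turns on immediate early genes through calcium and ERK kinase signalling, and the ERK pathway in turn induces its own inhibitors.

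Total RNA was sequenced after depletion of ribosomal RNA, and the deposited values were raw counts per gene. The 6 BLA libraries held 28277721 to 60260800 counts. The locus names Lars2, CT010467.1 and Gm15564 took between 0.203% and 41.8% of them and, since these names are known to collect reads of ribosomal RNA, were left out of all totals, which left 16470738 to 60138576 counts. Isolated library 3 and group-housed libraries 1 and 2 were rich in these reads, at 18.6%, 28.6% and 41.8%, against at most 1.32% in the others. These 3 libraries are called rRNA-rich below. Because 2 of them were group-housed, results are also given without them, which leaves isolated libraries 1 and 2 against group-housed library 3. Levels are CPM, counts divided by the TMM-scaled library size and brought to a common total. Values of single libraries follow the order 1, 2, 3 within a group, and a positive log2 fold change means a higher level in isolated libraries.

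The punches expressed genes of projection neurons, which cortex and BLA share, at high level. The 18 genes that mark lateral and basal amygdala neuron groups summed to 1636 to 1976 CPM in isolated and 1778 to 2020 CPM in group-housed libraries. The 14 genes of hippocampus, piriform and entorhinal cortex summed to 758 to 799 CPM in isolated and 758 to 846 CPM in group-housed libraries. Per kilobase of exon, the vesicular glutamate transporter Slc17a7 stood at 151 CPM and the kinase subunit Camk2a at 169.7 CPM, beside 328 CPM for the vesicle fusion gene Snap25 that all neurons share. Neurod6, a transcription factor of forebrain excitatory neurons, was at 18.3 CPM per kilobase and Lmo3 at 65.9 CPM per kilobase. The second vesicular glutamate transporter, Slc17a6, which marks thalamic and hypothalamic neurons, was lower at 11.999 CPM per kilobase. Gad1, which makes GABA, was at 51.4 CPM per kilobase. Glia were present as well, with the astrocyte enzyme Glul at 389.8, the myelin protein gene Mbp at 173, and the microglial protease Ctss at 41.9 CPM per kilobase.

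Markers of neighbouring tissue were uneven among the 6 libraries. Slc17a7 was at 463, 857 and 1012 CPM in isolated libraries and at 698, 883 and 971 CPM in group-housed libraries. Neurod6 was at 24.4, 47.8 and 38.2 CPM in isolated libraries and at 33.5, 45.2 and 46.3 CPM in group-housed libraries. Both were lowest in isolated library 1, and the 2 groups overlapped. The 19 striatal projection neuron genes, which include the dopamine receptors Drd1 and Drd2, went the other way. Drd2, the dopamine receptor of striatopallidal neurons, was at 90.7, 44.0 and 28.2 CPM in isolated libraries and at 54.3, 47.9 and 17.9 CPM in group-housed libraries. Chat, which makes acetylcholine and marks cholinergic neurons, was at 25.2, 6.30 and 3.47 CPM in isolated libraries and at 13.5, 5.31 and 1.81 CPM in group-housed libraries. The highest value of each of these 2 genes was in isolated library 1 and the lowest in group-housed library 3. Penk, the enkephalin precursor of striatal and central amygdala neurons, reached 290.4 CPM per kilobase over the 6 libraries.

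Summed over its 19 genes, the striatal list ran from 1842 to 4727 CPM in isolated and from 1416 to 3193 CPM in group-housed libraries. The 19 projection neuron genes summed to 3017 to 5564 CPM in isolated and 4377 to 5625 CPM in group-housed libraries. The first principal component of the 6 libraries held 40.7% of the variance and had isolated library 1 at its end. Choroid plexus markers were low or absent, with 7 of 17 genes below the filter on low counts, Folr1 at 10 counts or fewer in every library, and Ttr, its most abundant product, at 1.62 CPM per kilobase. Its 10 tested genes, some of which other cells also express, summed to 168 to 244 CPM in isolated and 161 to 210.0 CPM in group-housed libraries. Of 18 genes of thalamus and hypothalamus 12 were tested, which summed to 189.5 to 302 CPM in isolated and 260.1 to 301 CPM in group-housed libraries. Of the others, Hcrt and Pmch had at most 10 counts in any library, while Sim1 had 280 and Fezf1 38 counts in group-housed library 3. In bulk punches, fewer cells of a type and less RNA per cell cannot be told apart.

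**Figure D1:**
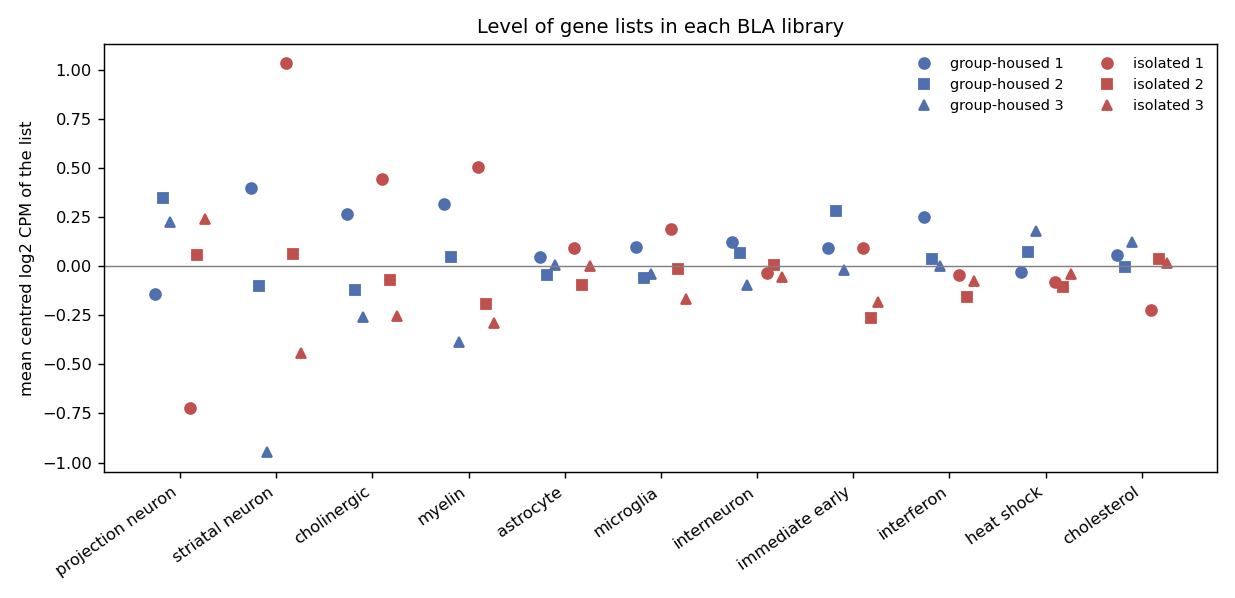
Each point is 1 BLA library, placed by the mean over a gene list of log2 CPM centred on the 6 libraries; colour gives the housing and shape the library number. Isolated library 1 was at 1.03 for the striatal list and at -0.72 for the projection neuron list, and group-housed library 3 was at -0.95 for the striatal list.

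Transmitter receptors and peptides of amygdala circuits were expressed over a wide range of levels. The AMPA receptor subunit Gria1 stood at 105 CPM per kilobase, Gria2 at 69.8 and the NMDA receptor subunit Grin2b at 57.2. Gabbr1, a subunit of the GABA-B receptor, was at 118 CPM per kilobase. Among interneuron peptides, somatostatin (Sst) was at 223, Npy at 113, Cck at 111 and Vip at 5.69 CPM per kilobase. Cnr1, the cannabinoid receptor of cholecystokinin interneurons, was at 58.4 CPM per kilobase. The stress peptide Crh was at 4.41, its binding protein Crhbp at 15.9 and the oxytocin receptor Oxtr at 4.62 CPM per kilobase.

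Receptors for steroid hormones were present at lower levels. Nr3c1, which encodes the glucocorticoid receptor, was at 19.7 CPM per kilobase, the mineralocorticoid receptor Nr3c2 at 11.9 and the oestrogen receptor Esr1 at 0.557. Between housings the first of these had nearly the same mean, 151 ± 8.92 against 151 ± 3.54 CPM for Nr3c1 (SD, n = 3 each), with a log2 fold change of -0.00 (SE 0.09).

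No gene differed between isolated and group-housed BLA after adjustment. edgeR's quasi-likelihood test over 22177 genes gave 0 calls (0%) at a Benjamini-Hochberg adjusted p under 0.05, and the smallest adjusted p was 0.956, for Wdfy1. At an unadjusted p under 0.05 there were 444 genes (2%), of which 302 were higher in isolated libraries (1.36%) and 142 lower (0.64%). limma's voom fit likewise made 0 calls, with 610 genes at an unadjusted p under 0.05, and DESeq2 made 6: Zfp125, 3110053B16Rik, Wdfy1, Rps18, Rps2 and Gm6794. The 3 libraries of a group did not overlap with those of the other for 1577 genes (7.11%), 921 of them higher in isolated (4.15%) and 656 lower (2.96%). The log2 fold change was above 0 for 49.9% and below 0 for 50.1% of genes, with a median of -0.00. The named genes below are therefore described by their values, and none of them passed edgeR's test.

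Grouped by function, 48 gene lists with 1130 tested genes held no member called after adjustment. The median log2 fold change lay within 0.1 of 0 in 38 of them, and in 33 lists the median changed sign when 1 of the 6 libraries was left out. The 10 lists beyond 0.1 were led on the higher side by striatal projection neuron and class I histocompatibility genes. On the lower side stood projection neuron genes, interferon response genes and immediate early genes.

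**Figure D2:**
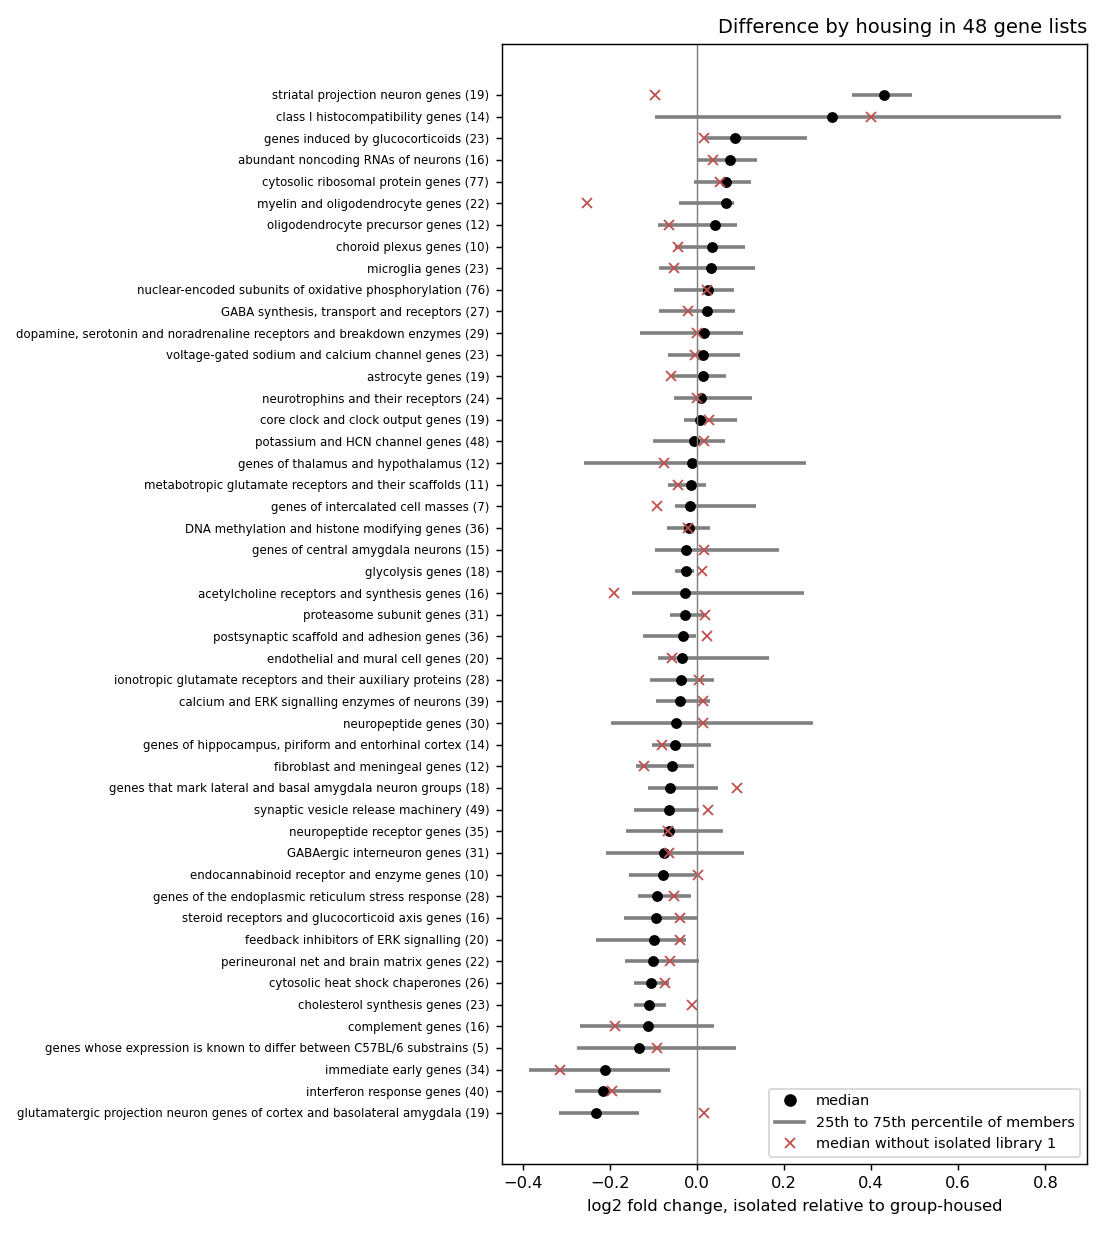
For each of 48 lists, with the number of tested genes in brackets, the dot is the median log2 fold change of isolated relative to group-housed BLA, the bar the 25th to 75th percentile of the members and the cross the median without isolated library 1. The striatal median went from 0.43 to -0.10 and the projection neuron median from -0.23 to 0.02, whereas the interferon median stayed below 0 at -0.19.

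All 19 projection neuron genes were lower in isolated libraries, against 50.1% of all genes, with a median of -0.23, and all 19 striatal genes were higher, with a median of 0.43. No member of either list had an unadjusted p under 0.05 or groups that did not overlap. Without isolated library 1 these medians were 0.02 and -0.10. Without the rRNA-rich libraries they were -0.46 and 1.61, and within those 3 libraries they were 0.12 and -0.69. Both directions thus depended on which libraries entered. The 22 myelin genes had a median of 0.07, which was -0.25 without isolated library 1.

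Immediate early genes, which neurons switch on within minutes of firing, were mostly lower in isolated BLA. Of the 34 measured and tested, 28 had a lower level in isolated libraries and 6 a higher one, with a median log2 fold change of -0.21 beside -0.00 over all genes. Klf10, Btg2 and Fos had an unadjusted p under 0.05, all lower in isolated libraries, beside 0.64% of all genes. Klf10, Btg2 and Fosb did not overlap between groups, beside 2.96% of all genes lower without overlap. The direction of the list held in every leave-one-out fit, where the median lay between -0.31 and -0.17. Its size was -0.08 without the rRNA-rich libraries and -0.29 within them.

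Fos, the transcription factor most used as a sign of recent activity, was at 19.0, 9.75 and 10.3 CPM in isolated libraries and at 25.5, 36.1 and 15.2 CPM in group-housed libraries. Its highest value was in group-housed library 2, and isolated library 1 lay above group-housed library 3. The means were 13.0 ± 5.21 against 25.6 ± 10.4 CPM (SD, n = 3 each), and the log2 fold change was -0.95 (SE 0.39). Between isolated libraries 1 and 2 and group-housed library 3 alone it was -0.09, and within the rRNA-rich libraries -1.57. Npas4, which neurons induce through calcium entry, was at 14.1, 7.02 and 6.03 CPM in isolated libraries and at 12.9, 19.6 and 11.5 CPM in group-housed libraries, with a log2 fold change of -0.68 (SE 0.35) that was -0.12 without the rRNA-rich libraries. Arc, which shapes AMPA receptor trafficking, was at 144, 53.7 and 54.2 CPM in isolated libraries and at 128, 149.9 and 70.2 CPM in group-housed libraries. Isolated library 1 was as high as the group-housed libraries for Arc, and the log2 fold change of -0.46 was 0.49 without the rRNA-rich libraries.

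Klf10 and Btg2 separated the groups. Klf10, a zinc finger gene induced by growth factors, was at 37.9, 44.6 and 47.6 CPM in isolated libraries and at 55.9, 62.0 and 52.7 CPM in group-housed libraries. Every isolated library lay below every group-housed library, and the log2 fold change of -0.39 (SE 0.11) ran from -0.46 to -0.30 over all settings tried. Btg2, an antiproliferative gene induced by activity, was at 18.3, 14.6 and 13.5 CPM in isolated libraries and at 20.03, 26.6 and 18.7 CPM in group-housed libraries. The isolated libraries were again the lower ones, by a narrow margin between isolated library 1 and group-housed library 3, and the log2 fold change of -0.49 (SE 0.16) was -0.19 without the rRNA-rich libraries. Egr1 overlapped, at 80.6, 45.6 and 53.7 CPM in isolated libraries and at 72.7, 116 and 45.6 CPM in group-housed libraries. Its log2 fold change of -0.37 (SE 0.39) was 0.47 without the rRNA-rich libraries. Bdnf, the activity-regulated neurotrophin, was at 25.04, 50.1 and 50.7 CPM in isolated libraries and at 32.2, 45.0 and 61.3 CPM in group-housed libraries, with a log2 fold change of -0.14 (SE 0.35). The sign of Bdnf depended on the libraries, with 0.12 without isolated library 1, 0.13 without group-housed library 3, and -0.70 without and 0.40 within the rRNA-rich libraries.

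The feedback inhibitors of ERK signalling were lower as well, in 16 of the 20 tested, with a median log2 fold change of -0.10. That median was -0.02 without group-housed library 3, -0.04 without isolated library 1 and 0.06 within the rRNA-rich libraries, where its sign turned. Spry3 was listed at 0 counts in all 6 libraries and was not tested. Dusp6, Dusp4 and Spry4 had an unadjusted p under 0.05, all lower in isolated libraries, beside 0.64% of all genes, and no member was that far in the other direction. Dusp6, the cytoplasmic phosphatase that switches ERK off, was at 49.2, 50.1 and 47.3 CPM in isolated libraries and at 58.3, 65.9 and 62.2 CPM in group-housed libraries. Every isolated library lay below every group-housed one, with a gap wider than the spread within either group. The means were 48.9 ± 1.46 against 62.1 ± 3.78 CPM (SD, n = 3 each), and the log2 fold change was -0.35 (SE 0.09) with an unadjusted edgeR p of 0.00299. Over all settings it ran from -0.39 to -0.30, including -0.33 without and -0.39 within the rRNA-rich libraries.

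Dusp4, the nuclear counterpart of Dusp6, was at 9.82, 8.56 and 11.7 CPM in isolated libraries and at 14.4, 11.6 and 14.2 CPM in group-housed libraries. Isolated library 3 lay just above group-housed library 2, and the log2 fold change of -0.43 (SE 0.15) was -0.16 within the rRNA-rich libraries. Spry4, a Sprouty inhibitor of receptor tyrosine kinase signalling, was at 10.2, 10.01 and 11.1 CPM in isolated libraries and at 11.9, 13.9 and 12.9 CPM in group-housed libraries. Its groups did not overlap, and the log2 fold change was -0.31 (SE 0.13). Others of the list were near even: Dusp8 stood at 0.02 (SE 0.09) and Spred1 at 0.03 (SE 0.10) on the log2 scale. The kinases and calcium sensors upstream, 39 genes of calcium and ERK signalling, had a median of -0.04 and 0 members at an unadjusted p under 0.05.

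**Figure D3:**
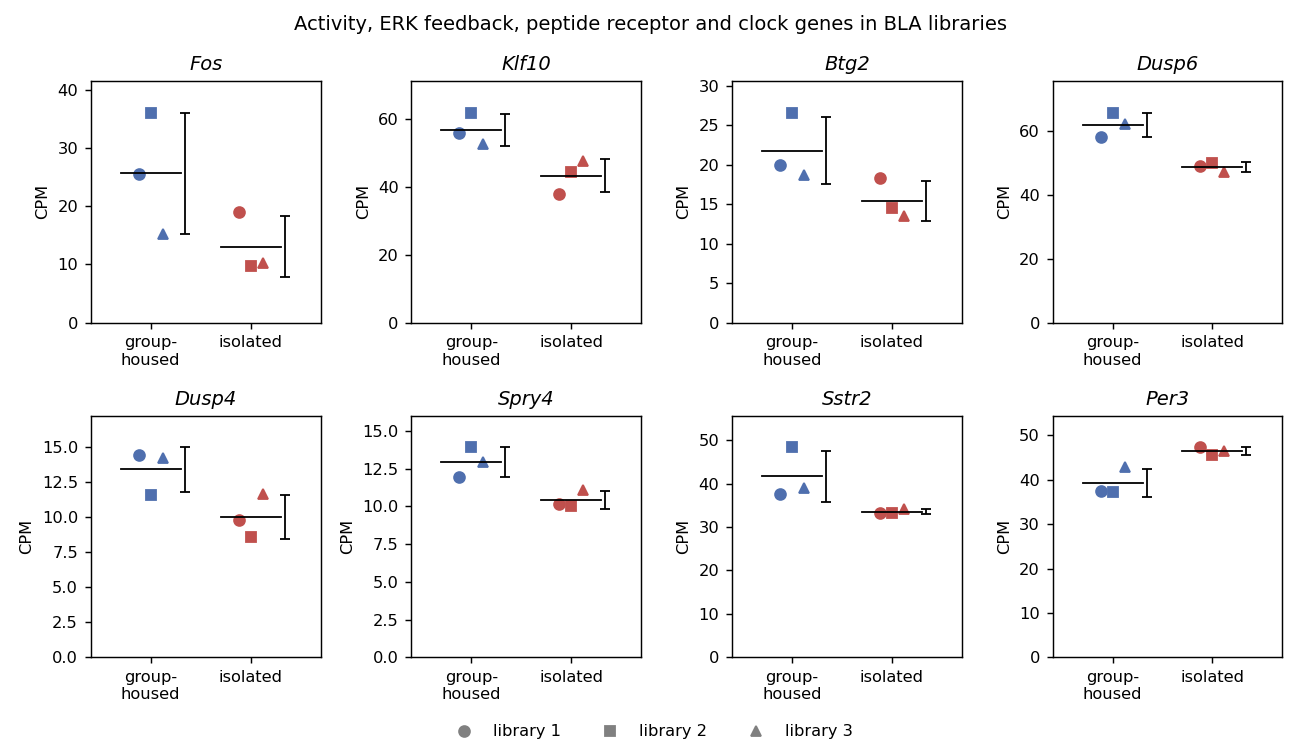
CPM of 8 genes in the 6 BLA libraries, with shape for the library number, a horizontal line for the group mean and a bar for ±1 SD (n = 3); each axis starts at 0. The 3 isolated values of Dusp6 lie between 47.3 and 50.1 CPM, all below the group-housed ones, whereas those of Fos overlap with the group-housed libraries.

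Promoters of 3 of these genes are shown because Fos and Btg2 are textbook targets of CREB, the factor that calcium and cyclic AMP activate, while Dusp6 is known to follow ERK through Ets factors. Each window holds 250 bases before and 50 bases after the RefSeq start on GRCm38.p6, the build called mm10, and is printed 5′ to 3′ on the strand of the gene. Capitals mark TGACG, the core of the cyclic AMP response element, searched on both strands, so that overlapping matches merge into 1 run. Fos lies at chr12:85473640-85473939 on the plus strand, Btg2 at chr1:134079106-134079405 on the minus strand and Dusp6 at chr10:99262981-99263280 on the plus strand.
Fos: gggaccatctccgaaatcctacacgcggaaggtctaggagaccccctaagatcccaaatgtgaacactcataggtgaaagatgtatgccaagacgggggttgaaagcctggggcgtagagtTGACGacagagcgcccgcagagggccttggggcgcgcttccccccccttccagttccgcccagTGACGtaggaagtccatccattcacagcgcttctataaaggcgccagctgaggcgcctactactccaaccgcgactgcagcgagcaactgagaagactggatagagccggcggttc
Btg2: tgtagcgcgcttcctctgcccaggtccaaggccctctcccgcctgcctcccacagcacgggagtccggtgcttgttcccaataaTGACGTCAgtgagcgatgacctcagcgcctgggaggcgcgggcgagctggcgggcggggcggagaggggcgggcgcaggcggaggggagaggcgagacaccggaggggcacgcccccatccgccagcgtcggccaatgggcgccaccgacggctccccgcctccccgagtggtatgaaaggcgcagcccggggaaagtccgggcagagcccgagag
Dusp6: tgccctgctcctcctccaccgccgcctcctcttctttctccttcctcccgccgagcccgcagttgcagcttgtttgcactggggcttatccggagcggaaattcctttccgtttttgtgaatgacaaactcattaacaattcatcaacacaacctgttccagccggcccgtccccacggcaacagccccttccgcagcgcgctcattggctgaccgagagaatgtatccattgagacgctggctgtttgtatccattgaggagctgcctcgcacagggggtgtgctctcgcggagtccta
The Fos window held TGACG 2 times, and the Btg2 window held it once on each strand, merged into the palindrome TGACGTCA. GENCODE M21 starts Btg2 at position 134079120, downstream of the RefSeq start, so that most of the 50 bases after the RefSeq start lie outside its transcript there. The Dusp6 window held none, which says only that these letters are not in this window. Among 32851 RefSeq promoters of the same length, 20.8% held TGACG and 1.79% held TGACGTCA. These matches are a description of the sequence and say nothing of factor binding in the punches.

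Neuropeptide genes were split, with 14 of the 30 tested of 34 listed higher and 16 lower in isolated BLA and a median of -0.05. Tac2, the precursor of neurokinin B, a peptide known to rise in the brain of adult mice after long isolation, was at 9.30, 7.25 and 6.81 CPM in isolated libraries and at 5.44, 3.62 and 6.05 CPM in group-housed libraries. All isolated libraries were above all group-housed ones, and the log2 fold change was 0.60 (SE 0.21), from 0.44 to 0.76 over all settings. Tac2 also belongs to the list of 15 central amygdala genes, which had a median of -0.03. The part of neighbouring tissue was not tested. Avp, the vasopressin precursor, was the other peptide gene at an unadjusted p under 0.05, but it was below 1 CPM in every library. These 2 members were both higher, beside 1.36% of all genes. Only Tac2 had groups without overlap, beside 4.15% of all genes that were higher without overlap. Cck, a peptide of interneurons and of some projection neurons, was at 85.9, 135 and 154 CPM in isolated libraries and at 142, 193 and 161 CPM in group-housed libraries, with a log2 fold change of -0.40 (SE 0.21) that was -0.19 without isolated library 1, and overlapping groups. Crh was at 5.45, 4.31 and 6.34 CPM in isolated libraries and at 7.14, 6.00 and 5.69 CPM in group-housed libraries, again overlapping.

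Peptide receptor genes included 3 with an unadjusted p under 0.05, all lower in isolated BLA, beside 0.64% of all genes, among 35 tested with a median of -0.06. Sstr2, an inhibitory receptor for somatostatin, was at 33.2, 33.2 and 34.2 CPM in isolated libraries and at 37.7, 48.4 and 38.9 CPM in group-housed libraries. The isolated libraries were close to each other and below all group-housed ones, and the log2 fold change was -0.31 (SE 0.11). Sstr1, a second somatostatin receptor, was at 9.35, 14.8 and 14.4 CPM in isolated libraries and at 15.8, 15.7 and 19.3 CPM in group-housed libraries. These groups did not overlap either, and the log2 fold change of -0.41 (SE 0.18) was -0.22 without isolated library 1. Hcrtr1, the orexin receptor, was at 1.46, 1.73 and 2.59 CPM in isolated libraries and at 2.07, 3.50 and 3.92 CPM in group-housed libraries, with overlap and a log2 fold change of -0.73 (SE 0.30) that was -0.07 within the rRNA-rich libraries. The ligand Sst had nearly equal means of 157 ± 18.8 against 164 ± 11.1 CPM (SD, n = 3 each). Oxtr had a log2 fold change of -0.18 (SE 0.12).

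Clock genes were even as a list, with 10 of 19 higher and a median of 0.01. At an unadjusted p under 0.05, 2 members were higher and 1 lower, beside 1.36% and 0.64% of all genes. Groups did not overlap for 2 members, both higher, beside 4.15% of all genes. Per3, a period gene that follows the daily cycle, was at 47.4, 45.7 and 46.4 CPM in isolated libraries and at 37.5, 37.3 and 42.9 CPM in group-housed libraries. Isolated libraries were higher without overlap, by a log2 fold change of 0.24 (SE 0.10) that was 0.12 without the rRNA-rich libraries. Dbp, a clock output factor, had one of 0.30 (SE 0.13) and the repressor Bhlhe40, which neuronal activity also induces, one of -0.32 (SE 0.14), both with overlapping groups and an unadjusted p under 0.05. Dbp was at 0.08 within and Bhlhe40 at -0.13 without the rRNA-rich libraries. The core genes Arntl, Per2 and Cry2 had log2 fold changes of -0.06, -0.02 and 0.01. The hour of collection is not given in the sources used here, and its part was not tested.

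Glucocorticoid target genes were mostly higher, with 18 of the 23 tested of 24 listed higher in isolated libraries and a median of 0.09. No member had an unadjusted p under 0.05. Sgk1, a kinase induced by corticosterone, was at 147, 51.1 and 69.5 CPM in isolated libraries and at 63.7, 59.1 and 51.4 CPM in group-housed libraries, where isolated library 1 alone stood out, and its log2 fold change of 0.62 was 0.05 without that library. Fkbp5, the cochaperone that limits receptor activity, was at 44.3, 43.8 and 46.9 CPM in isolated libraries and at 42.6, 42.3 and 42.1 CPM in group-housed libraries. Fkbp5 did not overlap between groups, yet the difference was 0.09 (SE 0.09) on the log2 scale. Without isolated library 1 the median of the list was 0.02.

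Interferon response genes were lower in isolated BLA in 35 of the 40 tested of 42 listed, with a median log2 fold change of -0.22. In 7 of them every isolated library was below every group-housed one, and in 1 the order was reversed, beside 2.96% and 4.15% of all genes. Rtp4, an interferon-induced chaperone of receptors, was the only member with an unadjusted p under 0.05, at 0.625, 0.571 and 0.594 CPM in isolated libraries and at 1.53, 1.31 and 1.09 CPM in group-housed libraries. Its log2 fold change was -1.13 (SE 0.32) at levels near 1 CPM. Ifitm3, which blocks viral entry, was at 2.597, 2.64 and 2.31 CPM in isolated libraries and at 3.88, 2.87 and 3.21 CPM in group-housed libraries. Isolated libraries were all below group-housed ones, and the log2 fold change was -0.41 (SE 0.21). Lgals3bp, a secreted glycoprotein, did not overlap either, with a log2 fold change of -0.26 (SE 0.15). Leave-one-out medians lay between -0.24 and -0.10, and the median was -0.09 without the rRNA-rich libraries. The 23 microglia genes summed to 585 to 767 CPM in isolated and 627 to 715 CPM in group-housed libraries, and their part was not tested.

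Cytosolic chaperones of the heat shock response were lower in 23 of 26, with a median of -0.11. Hspa1b encodes the inducible HSP70 and has a near-identical neighbour, Hspa1a, so its counts are uncertain. Hspa1b was at 2.66, 3.78 and 4.72 CPM in isolated libraries and at 4.16, 7.31 and 11.4 CPM in group-housed libraries. Group-housed library 3 was the highest and isolated library 1 the lowest, with overlap between isolated library 3 and group-housed library 1, and the log2 fold change of -1.05 (SE 0.36) was -0.25 within the rRNA-rich libraries. Stip1, which links HSP70 to HSP90, was at 161, 171 and 193 CPM in isolated libraries and at 188, 219 and 217 CPM in group-housed libraries, with overlap and a log2 fold change of -0.25 (SE 0.11) that was -0.07 within the rRNA-rich libraries. Of 28 genes of the endoplasmic reticulum stress response, 21 were lower, with a median of -0.09 and 0 members at an unadjusted p under 0.05. The chaperone Hspa5 of that response had a log2 fold change of -0.16 (SE 0.19).

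Cholesterol synthesis genes were lower in isolated libraries in 23 of 23, by small amounts with a median of -0.11. Cyp51, which removes a methyl group from lanosterol, was at 68.8, 80.1 and 66.7 CPM in isolated libraries and at 85.6, 88.7 and 81.6 CPM in group-housed libraries. Msmo1, the next oxidase of the pathway, was at 81.6, 88.5 and 80.4 CPM in isolated libraries and at 96.5, 97.4 and 95.1 CPM in group-housed libraries. Neither overlapped between groups, and the log2 fold changes were -0.25 (SE 0.10) for Cyp51, which was -0.13 without the rRNA-rich libraries, and -0.21 (SE 0.09) for Msmo1. The median of the list was -0.01 without isolated library 1, which had the lowest mean of the list, -0.22 on the centred log2 scale. That library also had the lowest projection neuron genes, whose part was not tested.

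Class I histocompatibility genes, which present peptides to T cells and take part in synapse remodelling in neurons, had the highest median of the 48 lists after the striatal one. Of 21 listed genes 14 passed the filter on low counts, and 9 of these were higher and 5 lower in isolated libraries, with a median of 0.31. That median was 0.05 without and 0.88 within the rRNA-rich libraries. With 1 library left out it lay between 0.12 and 0.72, the upper end without group-housed library 3. At an unadjusted p under 0.05, 4 members were higher and 1 lower, beside 1.36% and 0.64% of all genes. Groups did not overlap for 5 members that were higher and 2 that were lower, beside 4.15% and 2.96% of all genes. H2-D1, the classical class I gene, was at 11.4, 8.88 and 11.7 CPM in isolated libraries and at 5.86, 5.69 and 7.82 CPM in group-housed libraries. H2-T22, a nonclassical member, was at 7.81, 6.83 and 8.41 CPM in isolated libraries and at 3.48, 3.69 and 5.20 CPM in group-housed libraries. The isolated libraries were higher without overlap in both. H2-T23, the mouse counterpart of HLA-E, was at 6.89, 3.86 and 6.69 CPM in isolated libraries and at 1.05, 1.69 and 3.21 CPM in group-housed libraries. H2-T24 was at 4.86, 3.56 and 5.37 CPM in isolated libraries and at 2.07, 2.75 and 2.35 CPM in group-housed libraries. Here too every isolated library lay above every group-housed one. The log2 fold changes were 0.71 (SE 0.18), 0.88 (SE 0.20), 1.501 (SE 0.39) and 0.95 (SE 0.23).

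Not every gene of the antigen presentation pathway shared this direction. H2-T10 was lower, at 4.43, 5.09 and 2.91 CPM in isolated libraries and at 5.30, 7.999 and 5.78 CPM in group-housed libraries, without overlap and with a log2 fold change of -0.59 (SE 0.24). H2-K1, the second classical gene, was at 9.59, 6.18 and 8.72 CPM in isolated libraries and at 5.69, 4.69 and 7.53 CPM in group-housed libraries and overlapped. B2m, the light chain of every class I molecule, was at 35.1, 33.4 and 35.5 CPM in isolated libraries and at 39.5, 61.2 and 33.2 CPM in group-housed libraries, and the log2 fold changes were -0.35 (SE 0.20) for B2m, -0.30 (SE 0.23) for the peptide transporter subunit Tap1 and -0.12 (SE 0.12) for tapasin, Tapbp. Without the rRNA-rich libraries the values were 0.37 for H2-D1, 0.49 for H2-T22, 0.74 for H2-T23, 0.84 for H2-T24, -0.28 for H2-T10, 0.06 for H2-K1 and 0.04 for B2m, whose sign turned. B2m was at -0.07 without group-housed library 2, the library of its highest level. The class I genes are close paralogs, and how reads that fit several of them were counted is not stated in the labels used here, so single members are uncertain.

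The class I genes lie in a stretch of chromosome 17 that held most of its genes of small p. Between chr17:14195052-36121465, which was chosen after the values were seen, 32 of 453 tested genes (7.06%) had an unadjusted p under 0.05, against 3 of 483 (0.621%) on the rest of the chromosome and 2% of all genes. Of the 32, 25 were higher and 7 lower in isolated libraries, while the median of the 453 was 0.01. The genotype of the animals along this stretch is not stated in the labels, and its part in these differences was not tested. The stretch opens with Dact2, an inhibitor of Wnt and TGF-beta signalling, at 47.3, 41.3 and 38.1 CPM in isolated libraries and at 34.5, 29.3 and 33.2 CPM in group-housed libraries. It also holds Rps2 and Rps18, which encode proteins of the small ribosomal subunit, and Hspa1b, described above. Rps18 was at 80.4, 70.2 and 86.9 CPM in isolated libraries and at 40.3, 25.4 and 51.1 CPM in group-housed libraries. Its isolated libraries were all higher, with means of 79.2 ± 8.44 against 38.9 ± 12.9 CPM (SD, n = 3 each) and a log2 fold change of 1.01 (SE 0.23) that was 0.56 without the rRNA-rich libraries.

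**Figure D4:**
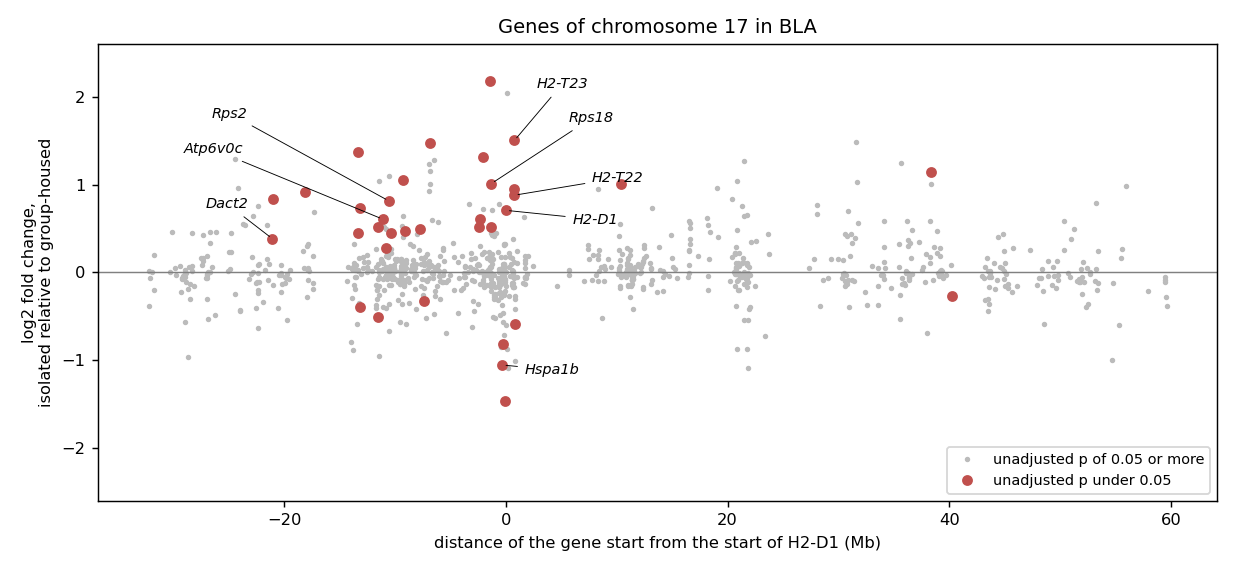
Each point is 1 tested gene of chromosome 17, placed by the distance of its start from the start of H2-D1 in Mb and by its log2 fold change, isolated relative to group-housed; red points have an unadjusted p under 0.05. Of the 35 red points, 32 lie in the 21.9 Mb that end at the class I genes.

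Promoters of H2-D1 and H2-T22 are shown because the control region of class I genes is well studied and both genes were higher in every isolated library. H2-D1 lies at chr17:35262844-35263143 on the plus strand and H2-T22 at chr17:36042693-36042992 on the minus strand, in the same window and with the same capitals as above. TGACG is also part of the class I promoter element that binds CREB family factors.
H2-D1: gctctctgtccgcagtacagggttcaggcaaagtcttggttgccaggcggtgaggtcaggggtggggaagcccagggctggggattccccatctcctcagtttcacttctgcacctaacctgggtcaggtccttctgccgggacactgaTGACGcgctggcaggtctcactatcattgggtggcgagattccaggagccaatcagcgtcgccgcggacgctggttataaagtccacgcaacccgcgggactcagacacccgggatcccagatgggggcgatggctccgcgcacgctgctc
H2-T22: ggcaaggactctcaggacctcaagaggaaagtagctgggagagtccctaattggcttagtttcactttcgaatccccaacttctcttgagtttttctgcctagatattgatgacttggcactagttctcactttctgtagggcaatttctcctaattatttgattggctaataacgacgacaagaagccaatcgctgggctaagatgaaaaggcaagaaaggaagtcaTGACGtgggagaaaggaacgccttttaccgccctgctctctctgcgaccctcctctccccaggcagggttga
Each window held TGACG once, nearer to the start in H2-T22 than in H2-D1. Whether either match is the class I promoter element was not tested. As given above, 20.8% of all promoters of this length held TGACG.

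Outside chromosome 17, the smallest p-values fell on genes of varied kinds. Wdfy1, an endosomal adaptor on chromosome 1 at chr1:79702262-79776143, was at 70.05, 70.6 and 68.0 CPM in isolated libraries and at 48.5, 41.4 and 46.8 CPM in group-housed libraries. The isolated libraries were close to each other and above all group-housed ones by more than the spread within either group, and the log2 fold change was 0.61 (SE 0.09), with 0.54 to 0.66 over all settings. Wdfy1 is known to differ in level between C57BL/6 substrains, which the labels do not give. Of 4 other genes known for this, Entpd4, Ide, Gabra2 and Nnt, none had an unadjusted p under 0.05. Their log2 fold changes were -0.57 (SE 0.37) for Entpd4, -0.13 (SE 0.12) for Ide, -0.28 (SE 0.30) for Gabra2 and 0.09 (SE 0.10) for Nnt. The part of substrain was not tested.

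Zfp125, an annotated pseudogene of zinc finger type on chromosome 12 at chr12:20877084-20921262, was at 7.25, 1.98 and 4.37 CPM in isolated libraries and at 0.397, 0.812 and 0.456 CPM in group-housed libraries. Its log2 fold change was 3.13 (SE 0.51). The entry 3110053B16Rik overlaps it on the same strand, so reads of the pair cannot be told apart, and was at 2.93, 0.705 and 1.84 CPM in isolated libraries and at 0, 0.250 and 0.0912 CPM in group-housed libraries. Between 19 and 26 Mb of that chromosome, 10 of 32 tested genes had an unadjusted p under 0.05. On the whole chromosome the share was 4.25%, and over all genes it was 2%. Of the 10, which include both entries of this pair, 9 were higher in isolated libraries. Among these was Rrm2, a subunit of ribonucleotide reductase. On chromosome 1 between 25 and 26 Mb, 6 of 24 tested genes were at that level, beside 3.16% on the whole chromosome. All 6 were higher in isolated libraries, by log2 fold changes of 0.36 to 0.55. All 6 are entries to be experimentally tested with no known function, such as Gm37862. These entries lie on the minus strand within chr1:25325866-25780306, and whether they are separate transcripts or parts of a longer one was not tested. Both windows were chosen after their values were seen, and for them too the genotype of the animals is unstated and its part was not tested.

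Bc1, a short RNA polymerase III transcript of neuronal dendrites at chr7:144914470-144914637, had one of the highest levels in the punches, 1755 CPM per kilobase. It was at 202, 245 and 247 CPM in isolated libraries and at 264, 399.5 and 411 CPM in group-housed libraries. Isolated libraries were all lower, and the log2 fold change of -0.63 (SE 0.16) ran from -0.88 to -0.42 over all settings. Among protein-coding genes, Emp1, a small membrane protein, was at 1.64, 1.76 and 1.59 CPM in isolated libraries and at 0.963, 0.625 and 0.583 CPM in group-housed libraries, a log2 fold change of 1.19 (SE 0.31). Kctd13, a cullin adaptor, was at 59.0, 60.6 and 64.6 CPM in isolated libraries and at 81.1, 73.9 and 72.1 CPM in group-housed libraries, and the lower isolated libraries gave -0.30 (SE 0.09). Hmga1, a chromatin protein, was at 18.1, 14.5 and 19.5 CPM in isolated libraries and at 12.1, 12.4 and 12.5 CPM in group-housed libraries, with a log2 fold change of 0.49 (SE 0.14) and no overlap.

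**Figure D5:**
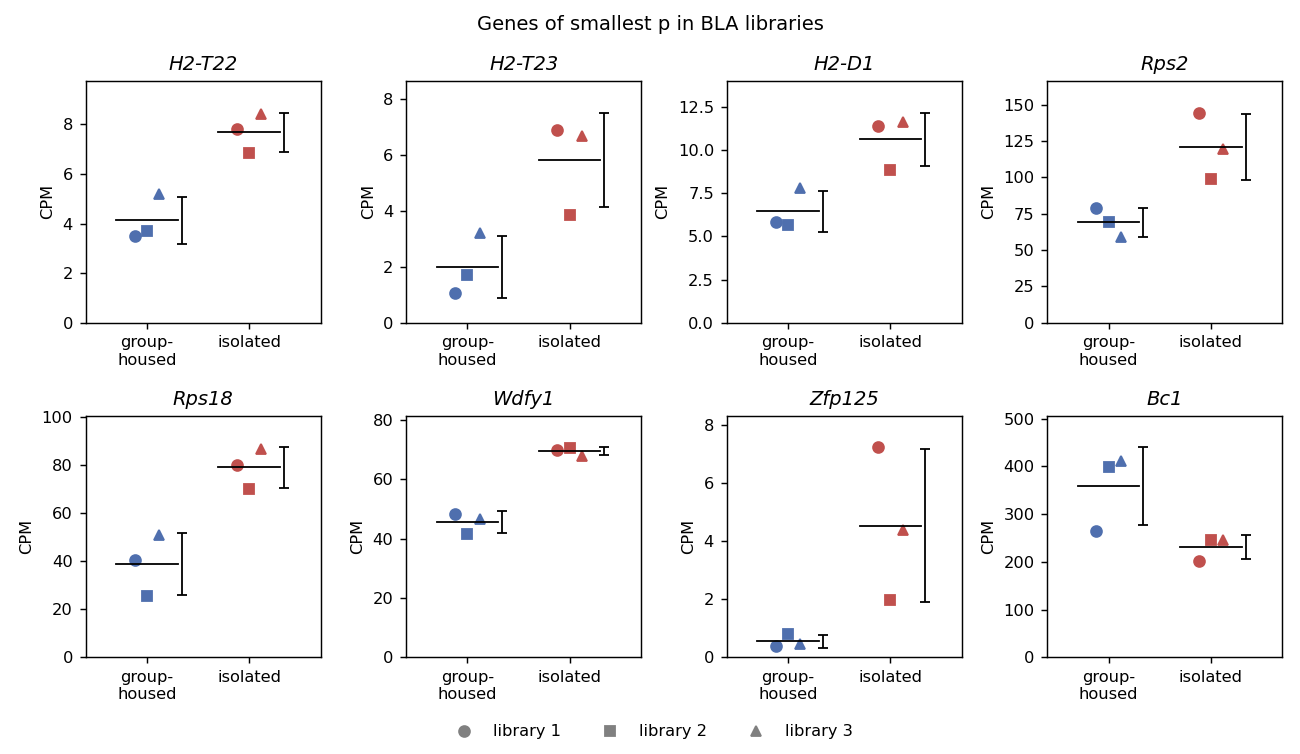
CPM of 8 genes of small p in the 6 BLA libraries, with shape for the library number, a line for the group mean and a bar for ±1 SD (n = 3); each axis starts at 0. Isolated libraries are higher in 7 of the 8 genes and lower for Bc1. In none of them do the groups overlap, but genes of smallest p were taken only from genes without overlap.

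Near-identical copies make some single genes uncertain. Rps2 was at 145, 98.9 and 119.7 CPM in isolated libraries and at 79.0, 69.2 and 58.7 CPM in group-housed libraries, and its processed copy Rps2-ps10 was at 0.644, 8.28 and 0.687 CPM in isolated and 16.5, 6.19 and 18.5 CPM in group-housed libraries. Summed, the pair stood at 124 ± 19.3 CPM in isolated and 82.7 ± 11.1 CPM in group-housed libraries (SD, n = 3 each), so the difference of Rps2 was present in the sum. The proton pump subunit Atp6v0c was at 73.1, 54.9 and 93.9 CPM in isolated libraries and at 57.9, 53.2 and 34.99 CPM in group-housed libraries. Its copy Atp6v0c-ps2 was at 0.683, 34.4 and 4.16 CPM in isolated and 50.5, 40.8 and 73.6 CPM in group-housed libraries. Their sum was 87.1 ± 12.3 against 104 ± 8.34 CPM (SD, n = 3 each), higher in group-housed libraries where Atp6v0c alone had the higher mean in isolated ones, so no direction is given for Atp6v0c. Cytosolic ribosomal protein genes as a list had a median of 0.07 over 77 genes, 55 of them higher.

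Genes of synaptic transmission had list medians near 0 between housings. The 28 ionotropic glutamate receptor genes had a median log2 fold change of -0.04, the 27 GABA genes one of 0.02, the 49 genes of vesicle release one of -0.06 and the 48 potassium and HCN channel genes one of -0.01. None of these 4 lists had a member with an unadjusted p under 0.05. Of the vesicle release genes 71.4% were lower in isolated libraries, beside 50.1% of all genes. That share was 53.6% for ionotropic glutamate receptor, 40.7% for GABA and 54.2% for potassium and HCN channel genes. Of 36 postsynaptic scaffold and adhesion genes 75% were lower, with a median of -0.03. Without isolated library 1 the medians were 0.03 for vesicle release and 0.02 for postsynaptic genes. The log2 fold change of Gria1 was -0.04 (SE 0.10), Grin2b had one of -0.09 (SE 0.18) and Gad1 one of 0.10 (SE 0.15). Of the metabotropic receptors, Grm2, the presynaptic autoreceptor, was at 15.8, 22.6 and 23.8 CPM in isolated libraries and at 21.4, 30.2 and 31.3 CPM in group-housed libraries, with overlap and a log2 fold change of -0.41 (SE 0.18) that was -0.25 without isolated library 1. Nuclear-encoded subunits of oxidative phosphorylation, 76 genes, had a median of 0.02, and the 19 astrocyte genes one of 0.01. A p above the threshold does not show that these genes were equal between housings.

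Set beside the VTA punches, edgeR called no gene whose housing difference in BLA differed. The contrast of the 2 differences, fitted with edgeR over all 12 libraries and 25232 genes, gave 0 calls (0%), with 3451 genes (13.7%) at an unadjusted p under 0.05 and a smallest adjusted p of 0.123, for Eif2s3y. DESeq2 called 136 genes in this contrast. Eif2s3y, on the Y chromosome, was at 53.6 to 61.1 CPM in the BLA libraries and at 0.106 to 0.483 CPM in the VTA libraries, in the direction of the sex the design gives. Xist, the RNA of the inactive X chromosome, was at 146 to 254 CPM in the VTA libraries and at 0.680 to 4.83 CPM in the BLA libraries, where group-housed libraries 1 and 2 were the highest. Region and sex change together and cannot be told apart.

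Per3, Dusp6 and Spry4 were among the genes of smallest p in that contrast. VTA isolated library 3 stood apart in its tissue content, with Slc17a7 at 251 CPM, against 3.23 to 25.9 CPM in the other VTA libraries, and Camk2a at 432 CPM, against 75.1 to 113 CPM. Scaled over the 12 libraries, Dusp6 was at 25.6, 21.9 and 30.7 CPM in isolated and 17.7, 18.9 and 19.6 CPM in group-housed VTA. Isolated VTA libraries were the higher ones, unlike in BLA, and the difference of the log2 fold changes, BLA minus VTA, was -0.82 (SE 0.15) with an adjusted p of 0.295. Spry4 was at 16.0, 13.7 and 13.0 CPM in isolated and 10.6, 8.81 and 10.1 CPM in group-housed VTA, a difference of -0.84 (SE 0.18) with an adjusted p of 0.309. Per3 was at 41.2, 43.9 and 40.6 CPM in isolated and 59.5, 60.0 and 56.6 CPM in group-housed VTA, lower after isolation there, a difference of 0.73 (SE 0.12) with an adjusted p of 0.163. C1ql1, a secreted synapse organiser, had a difference of -1.55 (SE 0.29) and an adjusted p of 0.295. Without VTA isolated library 3 the differences were -0.68 for Dusp6, -0.90 for Spry4, 0.71 for Per3 and -1.62 for C1ql1, with edgeR adjusted p-values of 0.443 to 0.465. DESeq2 over all 12 libraries called all 4 genes, with adjusted p-values of 0.00603 for Dusp6, 0.00887 for Spry4, 0.000138 for Per3 and 0.00174 for C1ql1.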

How the data were processed

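Brain punches gave total RNA libraries that were stranded and depleted of ribosomal RNA, per the labels' protocols. Trimming with cutadapt, alignment with TopHat2 to mm10 and counting with HTSeq come from the submitters' processing notes. For tool versions, annotation, strand setting and reads with several matches, nothing was stated (not given in the sources used here). The deposited values were raw counts for 54429 entries, of which 98.7% matched 1 gene name of GENCODE M21. The 37 mitochondrially encoded entries held 0 counts. Entries with a repeated name (4) and the loci Lars2, CT010467.1 and Gm15564 were left out, and 26 entries carried a date in place of a name.

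Counts were filtered with filterByExpr (at least 10 counts, total 15), scaled by TMM and fitted with edgeR 4.0.16 (robust quasi-likelihood, R 4.3.3) on the 6 BLA libraries with housing as the only term. P-values were adjusted over all genes by the Benjamini-Hochberg method. CPM and log2 CPM (prior count 2) were computed from these counts, and per-kilobase values used the summed exon length of GENCODE M21. The contrast with VTA used all 12 libraries. The fit was also run on simulated counts, in which genes did not share uneven tissue content or rRNA reads. Recovery of known changes there does not measure the power in these libraries.

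Named genes came from a rule: up to 10 genes per direction of smallest p with at least 1 CPM and no overlap, the key members, the 4 of smallest p and the 3 of highest level in each of 48 lists, the genes of highest level and spread, 5 per direction of the VTA contrast, and chromosome 17 genes of small p around the class I genes. Chat, Tap1, Dact2, Atp6v0c, Rrm2 and 3110053B16Rik, and the chromosome windows, fall outside it and were chosen after their values were seen. Members and lists were chosen with earlier results of these data known. Alternatives were DESeq2 1.42.0, limma 3.58.1, other scalings and filters, a replicate block, per-sample tables, the 3 loci kept, all 12 libraries, each library left out, and the rRNA-rich libraries left out or alone. Covariates for the striatal list and for the share of the 3 loci and leaving out VTA isolated library 3 were chosen after seeing the data.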

Additional observations from a re-analysis of the deposited data

How the results depend on the processing

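The count of 0 genes differing between housings in BLA became 6 with DESeq2 and 8 with no filter on low counts. Leaving out 1 library gave 0 to 4 genes, and the 4 (Gm13443, Gm9825, Zfp125 and Gm14292) came without isolated library 2. Without the rRNA-rich libraries (2 against 1) 1 gene was called, Sim1, and within them alone (1 against 2) 20, among them Fos, Arc, Npas4, Nr4a1, Rps18 and H2-T23. In these fits the lone library is assumed to vary like the others. limma, RLE and upper-quartile scaling, the other filter, the 3 loci kept, per-sample tables, all 12 libraries, both covariates and a threshold of 0.1 gave 0. The contrast with VTA gave 136 genes with DESeq2, 1 with no filter and 0 in the leave-one-out fits, including the one without VTA isolated library 3.

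With the replicate number as a block, 0 genes were called in BLA (765 at an unadjusted p under 0.05) and 1 in the contrast with VTA. Same-numbered libraries correlated at 0.50, -0.09 and 0.09 in their deviations from the group means. Library 1 of each group was the only one to correlate best with its own number. With 3 libraries a group and uneven tissue content, these correlations cannot show whether the numbers pair the samples.

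Over all settings, 927 medians of lists and of all genes stayed within the replicate spread around the reported value, and 53 did not. This spread was 0.72 for the striatal and 0.40 for the projection neuron list. Their changes of sign without isolated library 1 count as within it, so the tally does not show a stable direction. Log2 fold changes of named genes moved by more than the spread within groups in 317 refits and by less in 7738. Genes named for small p without overlap were chosen for their direction, so their direction shows no stability, and 12 of their refits came under an adjusted p of 0.05. With 3 libraries a group and uneven tissue composition, the precision for small differences is limited, most of all in genes of low level.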

Other observations

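RNAs outside the protein-coding genes took the top levels per length. Rn7sk, the RNA that holds back transcription elongation, was at 54802 CPM per kilobase, Malat1, a nuclear RNA, at 1131, and Rn7s1, an RNA of the signal recognition particle, at 959.7. Protein-coding genes of high level were the calmodulin gene Calm2 at 1037, the elongation factor Eef1a1 at 928 and the prohormone processing enzyme Cpe at 696 CPM per kilobase.

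Some short RNAs and pseudogenes varied widely between libraries of 1 group. Rn7s1 was at 467, 758 and 173 CPM in isolated libraries and at 86.8, 33.7 and 209 CPM in group-housed libraries. It was lowest in group-housed library 2, which had the highest share of counts in the 3 loci left out. Mir6236 was at 4.75, 0.890 and 40.7 CPM in isolated libraries and at 81.1, 202 and 3.12 CPM in group-housed libraries, high in the 3 rRNA-rich libraries and low in the others. Gm8399, a processed pseudogene, was at 67.5, 1.24 and 1.69 CPM in isolated libraries and at 1.501, 1.94 and 1.64 CPM in group-housed libraries, with isolated library 1 alone above 2 CPM. Gm9825, also a processed pseudogene, was at 0.195, 9.79 and 0.656 CPM in isolated libraries. In group-housed libraries it was at 14.9, 15.6 and 20.9 CPM, without overlap. Like the copies Atp6v0c-ps2 and Rps2-ps10, it was far higher in isolated library 2 than in the other isolated libraries.

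Sim1, a transcription factor of hypothalamic and medial amygdala neurons, had 280 counts in group-housed library 3 and 0 to 8 counts in the other 5 libraries. Fezf1, a hypothalamic transcription factor, had 38 counts in the same library and 0 to 12 elsewhere. Ucn3, a stress peptide of hypothalamic and medial amygdala neurons, had 41 counts in isolated library 2, 14 in group-housed library 3 and 0 to 4 in the others. Myoc, a secreted protein of meningeal cells, was at 1.03, 5.12 and 13.8 CPM in isolated libraries and at 8.499, 2.37 and 15.8 CPM in group-housed libraries, highest in group-housed library 3.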
